A study of Rattus norvegicus with 30 samples.

Results

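Genes of Schwann cells, the glia of peripheral nerve, and of the myelin sheath that these cells build were followed through the healing of the rat plantaris tendon. The set was fixed by name as 8 genes, Pmp22, Mbp, Prx, Sox10, S100b, Ngfr, Mag and Cldn19. Of these 8, the 5 genes Pmp22, Mbp, Prx, S100b and Ngfr were in the count table of 13124 genes. All 5 passed the filter that left 12558 genes for testing, which asked that at least 1 group average 3 CPM (read counts scaled to a common library size) or more. Sox10, Mag and Cldn19 were not analysed here.

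Schwann cells wrap the axons of peripheral nerves, either singly with a compact myelin sheath or in bundles without myelin. Pmp22 and Mbp encode structural proteins of compact myelin, Prx encodes periaxin of the outer Schwann cell membrane, S100b encodes a calcium-binding protein used as a Schwann cell marker, and Ngfr encodes the low-affinity neurotrophin receptor p75, a marker of immature, non-myelinating and injury-activated Schwann cells. After a nerve is cut, Schwann cells lower their myelin genes and turn to a repair state, and they myelinate again when axons regrow. Each gene is also used outside the Schwann cell: Pmp22 was first described as a growth arrest gene of fibroblasts, Mbp also encodes golli proteins of blood cells, S100b is made by fat and cartilage cells, and Ngfr by some stromal and perivascular cells.

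RNA was sequenced from whole plantaris tendons of 3-month-old male Sprague Dawley rats. In 6 groups both plantaris tendons were cut through and sutured at once, and GSK2894631A was then given by repeated daily gavage at 0, 2 or 6 mg/kg until day 7 (7D) or day 21 (21D). GSK2894631A inhibits hematopoietic prostaglandin D synthase, and 0 mg/kg was vehicle alone. The control rats had neither surgery nor compound. The groups held 3 control tendons, 5, 4 and 3 tendons at 7D (0, 2 and 6 mg/kg) and 5, 5 and 5 tendons at 21D, 30 in all. The study's methods sequenced the right tendon of each rat, cut just distal to the junction with the muscle, so that a sample is 1 rat. Injury, suture and gavage came together in the repaired groups and cannot be told apart against control.

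Libraries held 12405741 to 49909374 counts. Skeletal muscle genes (24 of 29 listed were measured) took 18.9% to 27.2% of the counts of control tendons and 0.00903% to 9.42% of those of repaired tendons, without overlap. The TMM scaling factors were 0.599 to 0.789 in controls and 0.950 to 1.10 in repaired tendons. The 7 tendon markers summed to 8860 CPM or more in every library, and between control and repaired tendons muscle share and injury cannot be told apart. Control replicate 4 and 21D 0 mg/kg replicate 2 stood apart from their groups, with root-mean-square deviations of 0.66 and 0.83 on the log2 scale, and control replicate 4 was the highest of the 30 tendons for 27.4% of genes. Results that either library moved past a threshold are given with and without it.

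All 5 genes were detected in every tendon, the lowest count being 13 for Ngfr. Against control, 3 of 5 genes rose in 7D 2 mg/kg tendons (Pmp22, Mbp and S100b), where 29.1% of all genes were called higher. Pmp22 alone rose at 21D with 2 mg/kg and again with 6 mg/kg, 1 of 5 members each time, where 26.7% and 23.9% of all genes were higher. None of 5 rose at 7D with 0 mg/kg (29% of all genes), 7D with 6 mg/kg (28.3%) or 21D with 0 mg/kg (25.4%). No member was called lower than control, while of all genes 27.6%, 26.5% and 27.4% were lower at 7D with 0, 2 and 6 mg/kg and 25.2%, 27.3% and 24.6% at 21D. The calls against control used the quasi-likelihood test of edgeR and p-values adjusted by Benjamini-Hochberg, with an adjusted p limit of 0.05 and a fold limit of 1.5. In whole-tendon RNA, fewer cells of a type cannot be told apart from less RNA per cell, here and throughout.

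The controls bear on all 6 comparisons, which share the same 3 tendons. Without control replicate 4 the count at 7D 2 mg/kg was 2 (Mbp and S100b) and that at 21D 2 and 6 mg/kg was 0. Of 12559 genes those fits called 3111 higher at 7D 2 mg/kg, against 3650 with all controls. At 21D they called 2717 higher with 2 mg/kg and 2374 with 6 mg/kg, against 3350 and 3003. With the log2 muscle share as a covariate no member passed at 7D 2 mg/kg, while Pmp22 still passed at 21D 2 and 6 mg/kg. Over all 12558 genes that covariate took the calls in either direction from 6977 to 1361 at 7D 2 mg/kg. At 21D they went from 6774 to 5586 with 2 mg/kg and from 6088 to 4866 with 6 mg/kg. At 7D 0 mg/kg 51.2% of called genes were higher, and this became 76.7% when libraries were scaled by their size alone, which raised the median change of all genes from 0.05 to 0.64 (log2).

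**Figure D1:**
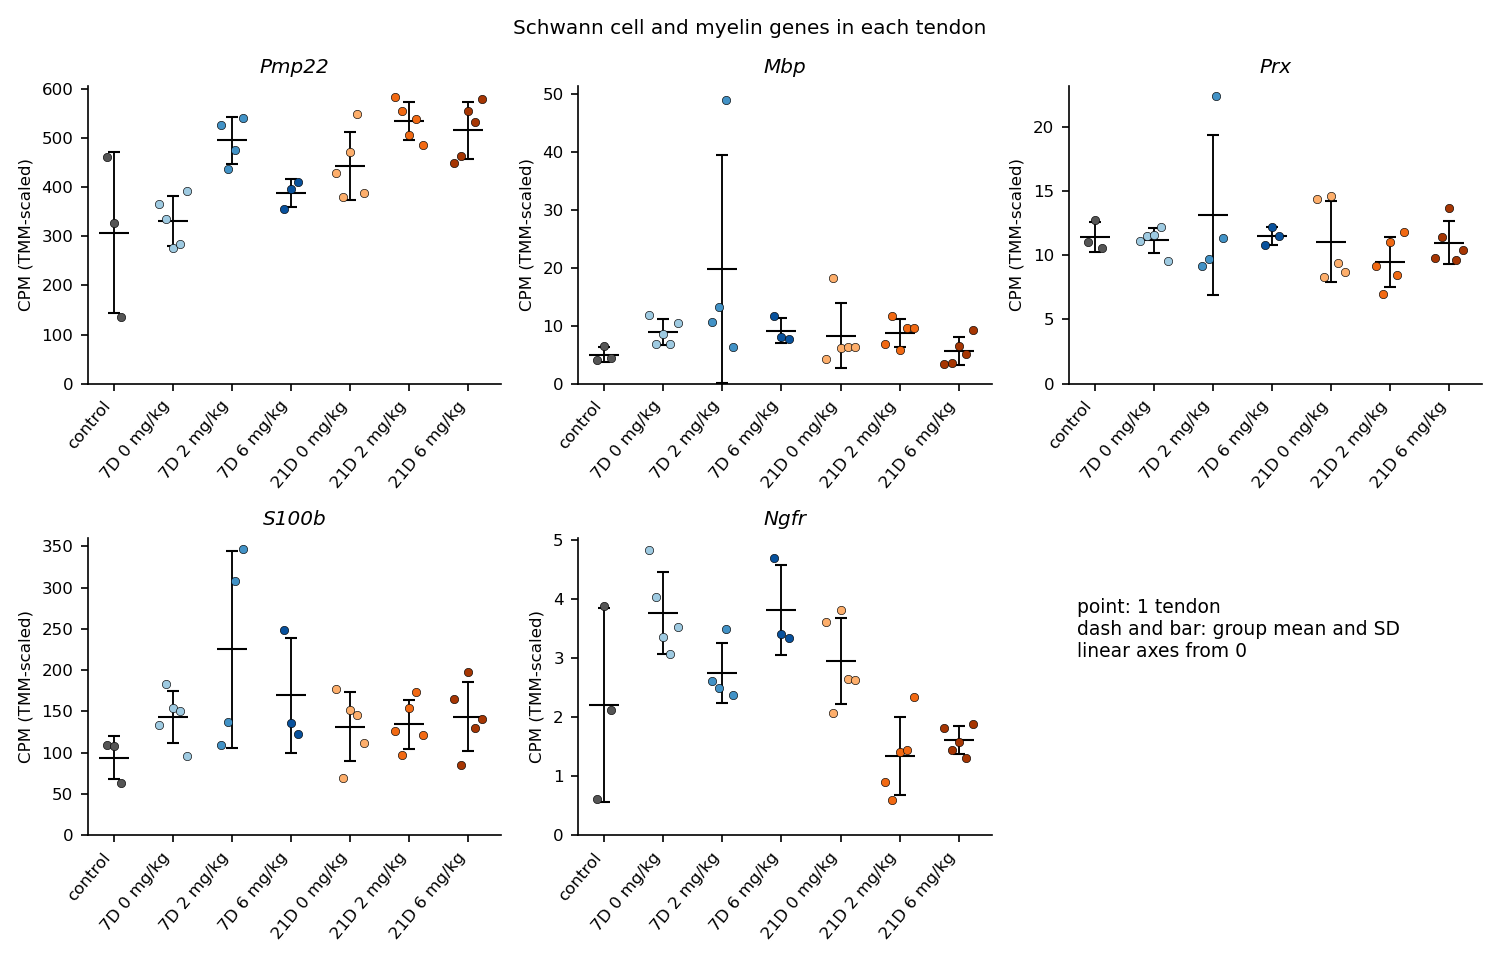
CPM (TMM-scaled, linear axes from 0) of Pmp22, Mbp, Prx, S100b and Ngfr in each of the 30 tendons, by group, with the group mean and SD as dash and bar. The 3 control tendons spread widely for Pmp22 (136 to 460 CPM), 1 tendon of the 7D 2 mg/kg group lies far above the others for Mbp (49.0 CPM) and Prx (22.4 CPM), and Ngfr is low at 21D with 2 or 6 mg/kg.

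Among the 5 members, Pmp22 passed the test in the most groups. The gene (ENSRNOG00000003338) lies on chromosome 10 of the rn6 build with a span of 29996 bases. Its level was 136, 326 and 460 CPM in the control tendons, a mean of 308 ± 163 (SD, n = 3). In 7D 0 mg/kg tendons it was 276, 283, 336, 366 and 392 CPM, all inside the control range. The 7D 2 mg/kg tendons held 437, 476, 526 and 541 CPM, and the 7D 6 mg/kg tendons 356, 397 and 410 CPM. At 21D the ranges were 380 to 548 CPM with 0 mg/kg, 485 to 583 CPM with 2 mg/kg and 449 to 578 CPM with 6 mg/kg. The 21D 2 mg/kg group did not overlap the controls, as held for 29.5% of all genes in that comparison, whereas the other groups did overlap.

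Pmp22 was higher than control by 0.69 (log2, SE 0.229, adjusted p = 0.0102 by edgeR) in 7D 2 mg/kg tendons. The rise was 0.80 (SE 0.222, adjusted p = 0.00275) at 21D 2 mg/kg and 0.74 (SE 0.222, adjusted p = 0.00516) at 21D 6 mg/kg. At 21D 0 mg/kg the difference of 0.53 (adjusted p = 0.0378) stayed under 1.5-fold, and at 7D 0 mg/kg it was 0.10 (adjusted p = 0.681). These calls rested on control replicate 4, the tendon at 136 CPM. Without it Pmp22 differed from control by 0.28 (adjusted p = 0.124) at 7D 2 mg/kg, by 0.38 (adjusted p = 0.038, under 1.5-fold) at 21D 2 mg/kg, by 0.35 (adjusted p = 0.0625) at 21D 6 mg/kg and by 0.13 (adjusted p = 0.494) at 21D 0 mg/kg. In a fit of only the groups compared, Pmp22 did not pass at 7D 2 mg/kg (adjusted p = 0.147), 21D 2 mg/kg (adjusted p = 0.0581) or 21D 6 mg/kg (adjusted p = 0.0859). At 7D 0 mg/kg Pmp22 differed by -0.31 (adjusted p = 0.077) in the same fit.

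Mbp (ENSRNOG00000016516, chromosome 18, a span of 110573 bases), the second structural myelin gene, was 4.15, 6.49 and 4.49 CPM in control tendons, a mean of 5.04 ± 1.27 (SD, n = 3). The 7D 0 mg/kg tendons held 6.79, 6.86, 8.64, 10.4 and 11.95 CPM and the 7D 6 mg/kg tendons 7.78, 8.02 and 11.7 CPM. Every tendon of these groups was above every control tendon, as held for 31.2% and 34.6% of all genes, but neither difference passed the test (0.82, adjusted p = 0.153, and 0.86, adjusted p = 0.176). In the 7D 2 mg/kg group the tendons held 6.29, 10.6, 13.2 and 49.0 CPM, a mean of 19.8 ± 19.7 (SD, n = 4). One tendon, replicate 4, was thus far above the other 3, and the lowest tendon lay within the control range.

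In that group Mbp was higher than control by 1.97 (log2, SE 0.549, adjusted p = 0.00276 by edgeR). Without 7D 2 mg/kg replicate 4 the mean was 10.05 ± 3.50 CPM (SD, n = 3) and the rise in Mbp was 0.99 (adjusted p = 0.0482). At 21D Mbp ranged from 4.34 to 18.3 CPM with 0 mg/kg, from 5.83 to 11.8 CPM with 2 mg/kg and from 3.38 to 9.33 CPM with 6 mg/kg, with differences from control of 0.71, 0.79 and 0.15 that did not pass (adjusted p = 0.221, 0.173 and 0.813). The highest of these was 21D 0 mg/kg replicate 2, without which the difference of that group was 0.19 (adjusted p = 0.73). With the log2 muscle share as a covariate, the sign of Mbp turned negative in all 6 comparisons with control (-0.66 at 7D 2 mg/kg, adjusted p = 0.655).

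Prx (ENSRNOG00000018369, chromosome 1, a span of 20333 bases), which organises the outer face of the myelinating Schwann cell, passed in no comparison with control. Its group means were 11.4 ± 1.16 CPM in control (SD, n = 3), 11.2 ± 0.971 at 7D 0 mg/kg (n = 5), 11.5 ± 0.703 at 7D 6 mg/kg (n = 3), and 11.1 ± 3.15, 9.49 ± 1.95 and 10.98 ± 1.67 at 21D with 0, 2 and 6 mg/kg (n = 5 each). In the 7D 2 mg/kg group the tendons held 9.13, 9.69, 11.3 and 22.4 CPM, so that again replicate 4 stood above the rest. Differences of Prx from control ran from -0.27 to 0.19 (log2), and the smallest adjusted p was 0.312. The 95% interval at 7D 0 mg/kg, -0.52 to 0.45 (log2), bounds the change in that group. The -0.27, found at 21D 2 mg/kg, became 0.25 when libraries were scaled by size alone.

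S100b (ENSRNOG00000001295, chromosome 20, a span of 12221 bases) was 109, 108 and 63.5 CPM in control tendons, a mean of 93.6 ± 26.1 (SD, n = 3). The 7D 2 mg/kg tendons fell into a low and a high pair, 109 and 137 CPM against 309 and 347 CPM. The low pair was at and just above the highest control tendon. S100b was higher than control by 1.27 (log2, SE 0.375, adjusted p = 0.00442 by edgeR) in this group, and between 0.98 and 1.49 (adjusted p 0.001 to 0.0419) without each tendon in turn. The 7D 6 mg/kg tendons, at 123, 136 and 249 CPM, all exceeded the controls, as held for 34.6% of all genes. The S100b difference of 0.86 (adjusted p = 0.0551) was 0.47 (adjusted p = 0.333) without replicate 1 and 1.04 (adjusted p = 0.0365) without replicate 5. Fat cell genes also differed from control in each 7D group. The 9 adipocyte markers summed to 470 to 990 CPM in control and 854 to 4136 CPM in 7D 2 mg/kg tendons. There 7 of 9 were called higher and 1, Plin4, lower, against 29.1% and 26.5% of all genes. At 7D 0 mg/kg, where S100b did not pass, 5 of 9 were higher and 1 lower, against 29% and 27.6% of all genes. At 7D 6 mg/kg 6 of 9 were higher and 1 lower, against 28.3% and 27.4%. The part of fat cells in the S100b result was not tested. The other repaired groups had means of 143 ± 31.9 CPM at 7D 0 mg/kg and 131 to 144 CPM at 21D, overlapped the controls and did not pass the test (log2 differences of 0.49 to 0.62).

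Ngfr (ENSRNOG00000005392, chromosome 10, a span of 18215 bases), the receptor of the set, was the least abundant in counts and moved differently from the rest. Its control values were 0.613, 3.89 and 2.12 CPM, from 13, 97 and 26 counts, and this spread spanned most of the repaired tendons. At 7D it was 3.07 to 4.82 CPM with 0 mg/kg, 2.38 to 3.49 CPM with 2 mg/kg and 3.34 to 4.70 CPM with 6 mg/kg. At 21D it was 2.08 to 3.80 CPM with 0 mg/kg, 0.603, 0.897, 1.404, 1.44 and 2.33 CPM with 2 mg/kg, and 1.31, 1.45, 1.57, 1.82 and 1.87 CPM with 6 mg/kg. None of the 6 differences from control passed the test, which ran from 0.79 at 7D 6 mg/kg (adjusted p = 0.106) to -0.74 at 21D 2 mg/kg (adjusted p = 0.0893). The level of control replicate 2 bore on these values, since without it Ngfr at 7D 0 mg/kg differed by 0.24 (adjusted p = 0.557) and without control replicate 3 by 1.53 (adjusted p = 0.00339). At 21D 6 mg/kg Ngfr went from -0.47 to 0 under scaling by library size alone.

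**Figure D2:**
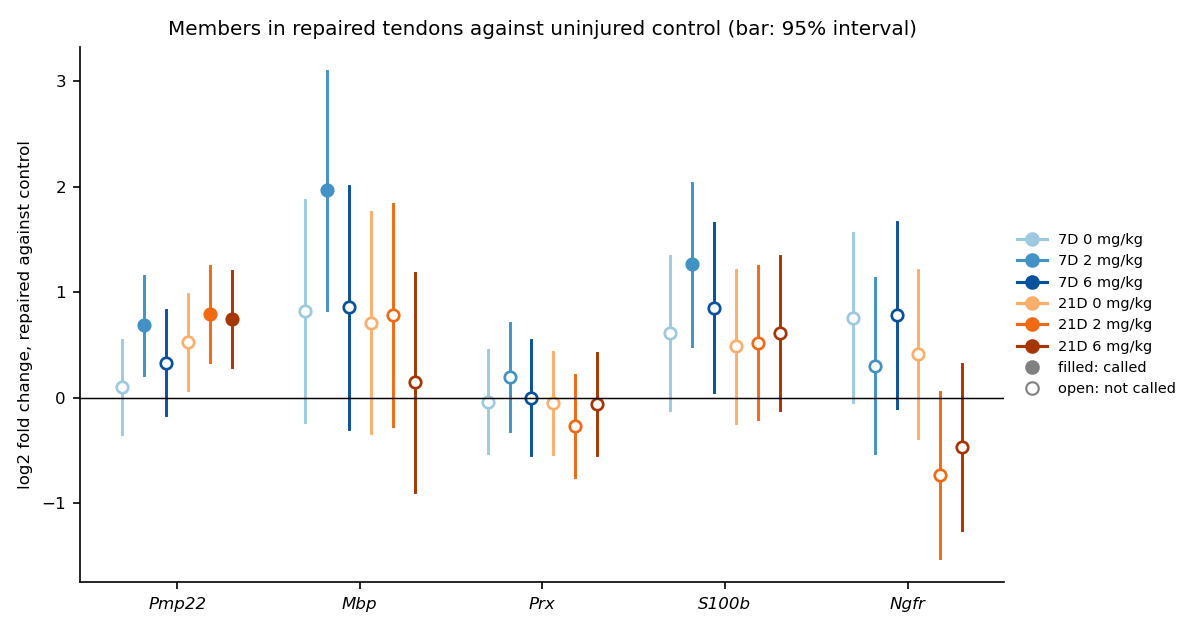
Log2 fold change of the 5 genes in each repaired group against control, with 95% intervals from edgeR; filled points passed the test at 1.5-fold. Pmp22 points are at or above 0.10 in every group, the Mbp and S100b points are highest at 7D 2 mg/kg (1.97 and 1.27), Prx points stay between -0.27 and 0.19, and Ngfr points are above 0 in the 3 groups at 7D (0.31 to 0.79) and at 21D 0 mg/kg (0.41) and below 0 at 21D 2 mg/kg (-0.74) and 21D 6 mg/kg (-0.47).

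Comparing the time points within a dose asks how the genes moved as healing went on. The control tendons are not compared there, but they are part of the fit over 7 groups. Ngfr was lower at 21D than at 7D in tendons given compound: it fell by 1.04 (log2, SE 0.350, adjusted p = 0.0494 by edgeR) at 2 mg/kg and by 1.26 (SE 0.371, adjusted p = 0.0257) at 6 mg/kg. In both doses every 21D tendon was below every 7D tendon, as held for 5.93% of all genes at 2 mg/kg and 10.6% at 6 mg/kg. With vehicle the values overlapped, and the difference in Ngfr was -0.35 (adjusted p = 0.555). Ngfr was the 1 member of 5 called lower at 2 mg/kg (5.98% of all genes) and at 6 mg/kg (4.55%), and none was called lower at 0 mg/kg (2.47%). No member was called higher at 0, 2 or 6 mg/kg, where 2.88%, 7.09% and 8.54% of all genes were. The change in Ngfr with time did not pass the test of a difference between doses (interaction of dose and time, adjusted p = 0.827), with 0 of 5 members and 0.39% of all genes called.

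The Ngfr calls between time points were near the threshold. Leaving out single tendons lost the 2 mg/kg call in 8 of 9 fits (differences of -1.33 to -0.85, adjusted p 0.0154 to 0.121) and the 6 mg/kg call in 5 of 8 fits (-1.34 to -1.07, adjusted p 0.0282 to 0.129). With the muscle share as a covariate the differences in Ngfr were -1.32 (adjusted p = 0.161) and -1.53 (adjusted p = 0.228). In a fit of only the groups compared, Ngfr at 2 mg/kg fell below the filter and gave no value. Pmp22, Mbp, Prx and S100b did not pass between time points at any dose. The nearest was Mbp at 2 mg/kg, -1.18 (adjusted p = 0.0798), which became -0.21 (adjusted p = 0.762) without 7D 2 mg/kg replicate 4 and -1.47 (adjusted p = 0.038) without replicate 5. For S100b at the same dose the difference was -0.75 (adjusted p = 0.121), and -0.97 (adjusted p = 0.0482) without 7D 2 mg/kg replicate 2. Pmp22 was above its 7D values in every 21D tendon at 6 mg/kg, as held for 10.8% of all genes, with a difference of 0.41 (adjusted p = 0.232).

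Adipocyte genes also differed between these time points with 2 and 6 mg/kg, and endothelial genes with 2 mg/kg. The summed level of the 5 measured endothelial markers (of 7 listed) ranged between 352 and 578 CPM at 7D and between 152 and 332 CPM at 21D with 2 mg/kg, without overlap. With 6 mg/kg the ranges were 402 to 548 CPM and 267 to 507 CPM, with overlap. Across the 30 tendons the Pearson r of Ngfr with this sum was 0.82, and 0.71 for deviations from group means, a description over tendons that share groups and scaling. Of the 5 endothelial markers 2 were called lower at 21D with 2 mg/kg and 0 with 6 mg/kg, and of the 9 adipocyte markers 8 and 6. Of all genes 5.98% were called lower with 2 mg/kg and 4.55% with 6 mg/kg. The part of these cells in the Ngfr result was not tested.

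Comparing doses within a time point asks how these genes differed with the dose of the HPGDS inhibitor. At 7D the muscle share was 0.165% to 1.25% with vehicle. It was 0.00903% to 0.0112% with 2 mg/kg and 0.00968% to 0.0118% with 6 mg/kg. Compound and muscle share therefore cannot be told apart against vehicle at 7D. No member passed the test over the 3 doses by edgeR, with 0 of 5 called at 7D, where 2.05% of all genes were called, and 0 of 5 at 21D, where 0% were. Before adjustment 1366 genes were under 0.05 at 21D, and the lowest adjusted value was 0.131. By DESeq2's likelihood ratio test 0 of 5 members were called at 7D and 1, Ngfr, at 21D (adjusted p = 0.0478, against 0.292 by edgeR). Of all 12558 genes the DESeq2 test called 572 at 7D and 138 at 21D. Unadjusted p were under 0.05 for Pmp22 (0.0228) and Mbp (0.0290) at 7D and for Ngfr (0.00365) at 21D. The test of a dose effect that differs between time points passed for no member (smallest adjusted p 0.827).

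Between single doses Pmp22 was higher with 2 than with 0 mg/kg at 7D in every tendon, a difference of 0.58 (log2, 95% interval 0.18 to 0.99, adjusted p = 0.123) that did not pass. Such non-overlap was seen for 2.77% of all genes. The Mbp difference was 1.15 (adjusted p = 0.194) and 0.17 (adjusted p = 0.873) without 7D 2 mg/kg replicate 4, and that of S100b was 0.65 (adjusted p = 0.323). At 21D Ngfr was -1.15 (95% interval -1.83 to -0.47, adjusted p = 0.388) with 2 against 0 mg/kg. With 6 against 0 mg/kg it was -0.88 (interval -1.56 to -0.20, adjusted p = 0.741), and every 6 mg/kg tendon was below every vehicle tendon, as held for 0.43% of all genes. Pmp22 at 7D was lower with 6 than with 2 mg/kg in every tendon (-0.35, adjusted p = 0.793), as held for 5.52% of all genes. None of the 6 pairs of doses gave a called member, although a fit of only the groups compared called Pmp22 for 2 against 0 mg/kg (adjusted p = 0.0466) and across doses (adjusted p = 0.0496) at 7D, and of all genes 2.36% were called for 2 against 0 mg/kg at 7D, 0.39% for 6 against 0 mg/kg at 7D and 0% for the other 4 pairs, where 810 to 1751 genes had an unadjusted p under 0.05. At 21D the intervals of S100b (-0.59 to 0.65 with 2 against 0 mg/kg) and Prx (-0.64 to 0.20) bound the differences these data allow.

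The 7D 2 mg/kg replicate 4 tendon set several of these values. It was the highest of the 30 tendons for Mbp and Prx, and in the wider set of Schwann cell genes also for Drp2, which encodes the partner of periaxin. These made 3 of 26 Schwann cell genes, against 4.01% of all genes that were highest in that library. Another tendon, 21D 2 mg/kg replicate 1, was also highest for 3 of the 26 (Pmp22, Gap43 and Ntrk3), against 1.65% of all genes. Drp2 was 6.77 CPM there and at most 4.89 CPM in any other tendon. Apod, a lipid carrier gene active in peripheral nerve, was 56.8 against 10.2 CPM, a ratio of 5.57. The adipocyte sum of the tendon (4136 CPM) was likewise the highest of the 30. S100b was the second highest of the 30 tendons there (309 CPM), whereas Pmp22 (476 CPM) and Ngfr (3.49 CPM) lay within the range of other tendons.

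Some correlations among these genes depended on this tendon. Over the 30 tendons the Pearson r of log2 CPM was 0.19 for Mbp and Prx, and over the other 29 tendons it was -0.40. Prx and Drp2 went from 0.66 to 0.52, S100b and Prx from 0.51 to 0.36 and Mbp and Egr2 from 0.62 to 0.71. The 5 members correlated with each other between -0.40 and 0.51 over the 30 tendons. Pmp22 correlated with Gap43 at 0.83 with and without that tendon and with Mbp at 0.11 and 0.08. Control replicate 4 was the lowest tendon for both Pmp22 and Gap43, and without it these values were 0.68 and -0.05. The 21D 0 mg/kg replicate 2 tendon was the highest for Egr2 (92.7 CPM) and the second highest for Mbp (18.3 CPM). The correlation of Mbp and Egr2 was not computed without it.

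**Figure D3:**
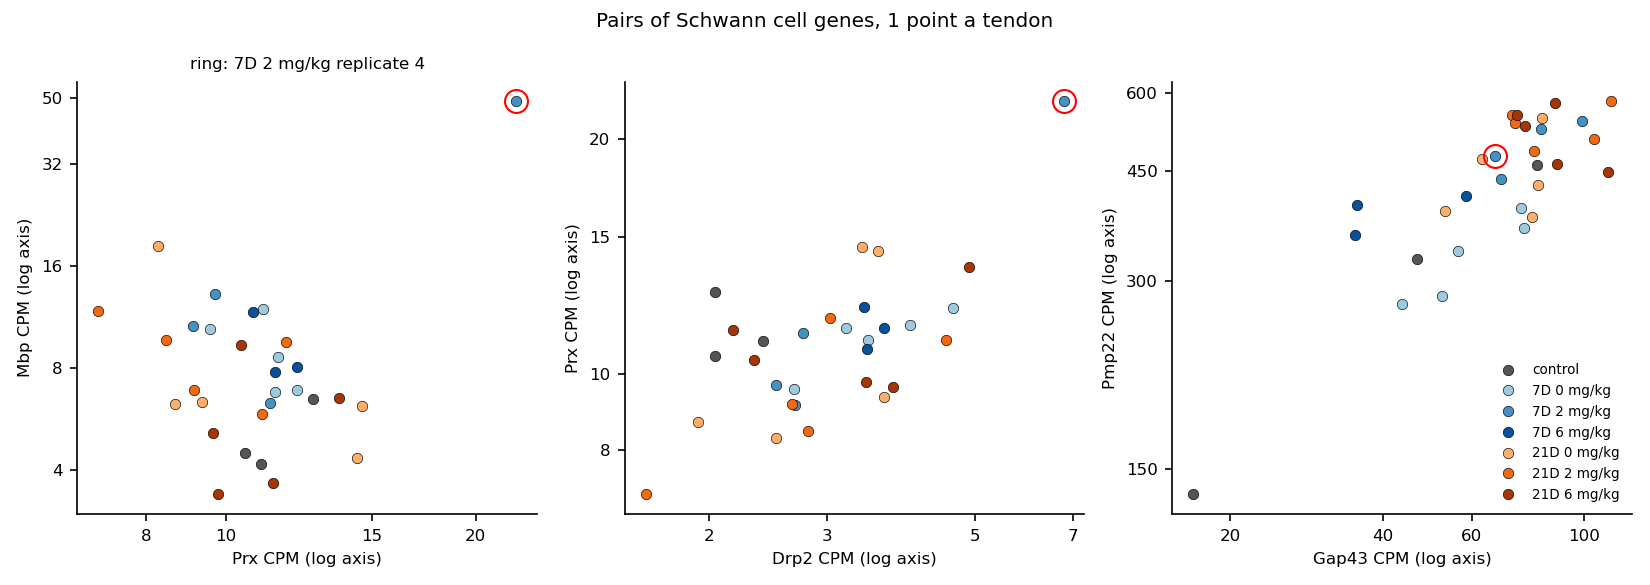
CPM of Mbp against Prx, of Prx against Drp2 and of Pmp22 against Gap43, on log axes, 1 point for each of the 30 tendons, coloured by group; a ring marks 7D 2 mg/kg replicate 4. That tendon lies alone at the upper right with Mbp at 49.0 CPM and Prx at 22.4 CPM, and again with Drp2 at 6.77 CPM, while Pmp22 and Gap43 rise together across tendons (r = 0.83, and 0.68 without control replicate 4 at the lower left).

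The genes most like each member across the 30 tendons were found among all tested genes by Pearson r of log2 CPM, as a description without a test. For Pmp22 they were Lrrn4cl (r = 0.956), Camkk1 (0.926) and Gfpt2 (0.923), and within groups Lrrn4cl, Gfpt2 and AABR07021547.1 (0.927 to 0.9). Without control replicate 4 these were 0.909, 0.853 and 0.848, and within groups 0.775 to 0.694. For Mbp they were Ctdspl (0.813), Furin (0.810) and Fkbp15 (0.806), and within groups Tgfb1 (0.854), Tln1 (0.848) and Pip5k1c (0.840). No gene of the Schwann cell list was among these.

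Prx ran most with LOC102555377 and AABR07007642.1 (r = 0.718 each) and Clmn (0.685), and within groups with Clmn (0.820), Sh3bp4 (0.813) and Itgb4 (0.758). S100b ran with Uck1 (0.790), Csad (0.783) and Apcdd1 (0.777), and within groups with Spata33 (0.827), Uck1 (0.771) and Rbp4 (0.765), the last a retinol carrier made by fat cells. Ngfr ran with Card10 (0.860), Syt15 (0.857) and Lpar6 (0.847), and within groups with Cxcl12 (0.827), Kit (0.816) and Dnm3 (0.774). Depth, scaling and the group structure are common to all these pairs.

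Levels of other cell types ran alongside the members. Mbp correlated over the 30 tendons with the summed level of 6 of 6 macrophage markers (r = 0.70), with 3 of 5 perineurial markers (0.68) and with the muscle share (-0.65). The 21D 0 mg/kg replicate 2 tendon had the highest macrophage (1791 CPM) and perineurial (322 CPM) sums of the 30. It also had the second highest Mbp (18.3 CPM) and the lowest muscle share of its group (0.0649%). These 3 correlations were not computed without it. The 3 perineurial markers did not move together. At 7D 0 mg/kg 2 were called higher than control and 1 lower (log2 -1.70 to 2.68), beside 29% and 27.6% of all genes. S100b correlated with 9 of 9 adipocyte markers (0.53), Ngfr likewise (0.68), and Pmp22 with 6 of 6 fibroblast markers (0.56). Without control replicate 4 the last was -0.02, and the others were between 0.56 and 0.76 in size. At 21D 2 mg/kg the adipocyte sum was 265 to 687 CPM. The macrophage sum was 123 to 462 CPM in control and 669 to 1474 CPM in 7D 0 mg/kg tendons, which did not overlap. The fibroblast sum was lowest in control replicate 4 of all 30 tendons (13100 CPM), the same tendon that was lowest for Pmp22. The part of these cells in the member results was not tested.

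Other genes used by Schwann cells, many of which other cells of the tendon also express, were counted in the same way. Of 40 genes in 4 lists, 23 were measured and 21 passed the filter, Gfra3 and L1cam being below it. At 7D 7 of 21 were higher and 2 lower than control with vehicle, 11 were higher and 4 lower with 2 mg/kg, and 7 were higher and 3 lower with 6 mg/kg. The 7 with vehicle include Nrg1, which passed the filter only through that group. The 2 lower with vehicle include Scn7a, which passed the filter only through control. These counts compare with 29%, 29.1% and 28.3% of all genes called higher and 27.6%, 26.5% and 27.4% called lower, so that 7 of 21 is near the background. At 21D the counts were 9 and 2 with 0 mg/kg, 9 and 4 with 2 mg/kg and 10 and 4 with 6 mg/kg, against 25.4%, 26.7% and 23.9% of all genes higher and 25.2%, 27.3% and 24.6% lower. The median change of the 21 genes was 0.44 at 7D 0 mg/kg and 0.57 at 21D 0 mg/kg (log2), against 0.05 and 0.03 over all genes. Without control replicate 4 the counts were 7 and 2, 8 and 2 and 7 and 3 at 7D, and 6 and 2, 7 and 3 and 6 and 3 at 21D. Of 12559 genes those fits called 6406, 6354 and 6341 at 7D and 5476, 5938 and 5200 at 21D, in either direction. The genes called higher among these were 3047, 3111 and 3085 at 7D and 2555, 2717 and 2374 at 21D. With the muscle share as a covariate the counts of the 21 genes were 5 and 0 at 7D 0 mg/kg, 1 and 0 with 2 and with 6 mg/kg, and 7 and 2, 8 and 3 and 7 and 3 at 21D. Over all genes this covariate took the calls at 7D from 7108 to 5118 with 0 mg/kg. They went from 6977 to 1361 with 2 mg/kg and from 6995 to 1445 with 6 mg/kg. At 21D they went from 6347 to 4920, 6774 to 5586 and 6088 to 4866 with 0, 2 and 6 mg/kg.

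The 4 lists hold few genes each, and at 7D 0 mg/kg 29% of all genes were called higher and 27.6% lower. Of 6 myelin and node proteins, 1 rose and none fell at 7D 0 mg/kg. Cnp, an enzyme of the myelin-forming cell that is also active elsewhere, was 28.4 to 33.7 CPM in control and 69.6 to 81.0 CPM in 7D 0 mg/kg tendons, a rise of 1.26 (log2, SE 0.114, adjusted p = 1.18e-09 by edgeR). Mal, a lipid raft gene of compact myelin, differed by -0.02 (adjusted p = 0.974) at 7D 0 mg/kg and was lower than control at 21D 2 mg/kg (-1.81, adjusted p = 0.00731) and at 21D 6 mg/kg (-1.75, adjusted p = 0.0104). Gjb1 was not analysed here.

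Of 9 regulators and receptors, 5 rose and none fell at 7D 0 mg/kg, beside the 29% and 27.6% of all genes. The 5 include Nrg1, whose call in this group was tied to the filter, as given below. Egr2, the master regulator of the myelin programme, is also an early response gene of immune cells, and the study read it as a marker of early tenogenesis. Egr2 was 1.32 to 4.25 CPM in control and 21.6 to 48.0 CPM in 7D 0 mg/kg tendons, a rise of 3.16 (SE 0.766, adjusted p = 7.3e-04). The cells behind this rise were not tested. It stayed between 2.34 and 3.48 above control in the other 5 groups. Erbb3, the neuregulin receptor of Schwann cells, rose by 1.71 (adjusted p = 0.00151; 1.21, adjusted p = 0.0156, without control replicate 4) at 7D 0 mg/kg and differed by 0.63 (adjusted p = 0.20) at 21D 0 mg/kg. Nrg1, which encodes its ligand, had 0, 5 and 0 counts in control and 40 to 202 counts in 7D 0 mg/kg tendons, and its fitted difference of 5.20 depends on the prior count. Its mean was 3.14 CPM at 7D 0 mg/kg and at most 2.29 CPM in any other group. The filter thus kept Nrg1 only through the group where it was high, and its rise there is no separate result. The injury-response factor Jun was -0.45 (adjusted p = 0.0296), under 1.5-fold, and fell by 0.63 (adjusted p = 0.0055; under 1.5-fold without control replicate 4) at 7D 2 mg/kg and by 0.93 (adjusted p = 3.9e-04) at 7D 6 mg/kg. With the muscle share as a covariate the 7D 0 mg/kg differences of Egr2 (adjusted p = 0.0533) and Erbb3 (adjusted p = 0.0601) did not pass.

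Of 3 genes of non-myelinating and repair Schwann cells, 1 fell and none rose at 7D 0 mg/kg. Scn7a, a sodium channel gene of non-myelinating Schwann cells, was 3.49 to 6.45 CPM in control and 0.335 to 3.48 CPM in 7D 0 mg/kg tendons. It fell by 2.14 (SE 0.574, adjusted p = 0.00183) at 7D and by 2.06 (adjusted p = 0.00293) at 21D 0 mg/kg. Control was the only group to average 3 CPM or more for Scn7a. The filter thus kept Scn7a only through the group where it was high, and its fall is no separate result. Gap43, a growth-state marker of axons and Schwann cells, differed by 0.33 (adjusted p = 0.336), and by -0.13 (adjusted p = 0.678) without control replicate 4. Cdh19 was not analysed here. Of 3 neurotrophins and receptors, 1 rose and 1 fell. Ntrk2, a neurotrophin receptor gene, rose by 1.19 (adjusted p = 4.38e-04; 0.86, adjusted p = 0.0109, without control replicate 4), while Sort1, the partner of p75 for proneurotrophins, fell by 1.12 (adjusted p = 3.33e-04). With libraries scaled by size alone the Sort1 difference was -0.54 (adjusted p = 0.0567), and with the muscle covariate Scn7a (adjusted p = 0.0527) and Sort1 (adjusted p = 0.143) did not pass.

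**Figure D4:**
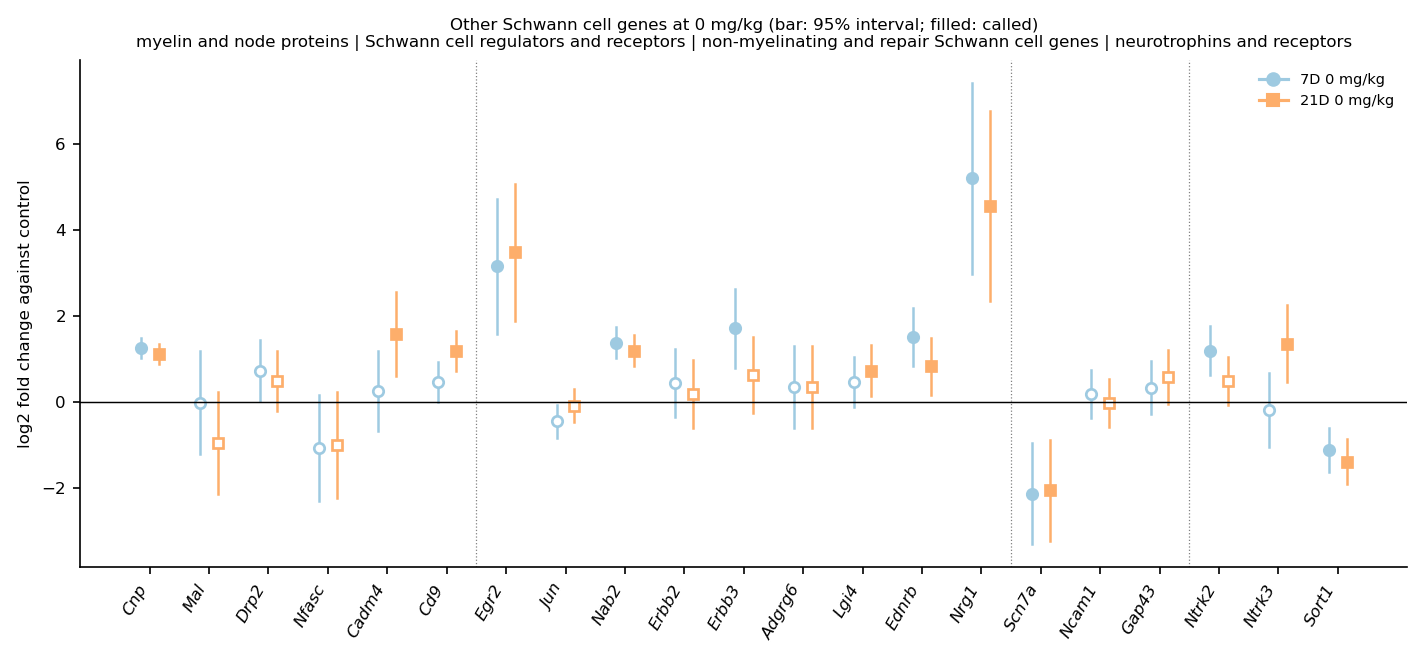
Log2 fold change of 21 other Schwann cell genes in 7D 0 mg/kg (circles) and 21D 0 mg/kg (squares) tendons against control, with 95% intervals; filled points passed the test at 1.5-fold and dotted lines part the 4 lists. Egr2 and Nrg1 lie highest (3.16 and 5.20 at 7D) and Scn7a lowest (-2.14 at 7D), while the interval of Mal includes 0 at 7D. Nrg1 passed the filter only through the 7D 0 mg/kg group and Scn7a only through control.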

How the data were processed

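RNA was taken from 30 plantaris tendons, and libraries were read on an Illumina HiSeq. Per the study's methods, the authors trimmed reads with fastp, mapped them to rn6 and counted reads in exons of Ensembl genes with STAR. They had left out some libraries for read quality. The deposited file used here holds whole-number counts per gene, not normalized, for 13124 genes. A second file of the authors' own fold changes and p-values was used only for chromosomes and gene spans. Its values of unit other (the deposited gene width) are bases from first to last base, introns included.

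Samples were grouped by the labels' repair time and dose. The counts were scaled by TMM and tested with edgeR 4.0.16 (quasi-likelihood F-test) in R 4.3.3 in 1 fit over 7 groups, for the 12558 genes averaging 3 CPM or more in some group, with Benjamini-Hochberg adjustment over all of them. Every adjusted p is from this test unless another is named. Against control, calls needed an adjusted p under 0.05 and 1.5-fold, otherwise the adjusted p alone. DESeq2 1.42.0 was an alternative. Log2 CPM for correlations used a prior count of 2.

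The members and lists were chosen with earlier results of these data known. Named other genes were a few set by name, some of which are not reported here, the largest called increase and decrease of each list at 7D 0 mg/kg, and the 3 genes most correlated with each member; Drp2, Apod, and Mal at 21D were chosen after their values were seen. Replicate numbers recur across groups, but deviations of same-numbered tendons correlated by 0.007 on average, and 38.2% of such pairs exceeded 0.1, so the numbers do not pair tendons. No pair of tendons in a group agreed within sampling noise (lowest chi-square per gene 29.6). In counts simulated for 7D 0 mg/kg against control, 200 of 12069 genes were changed, up or down, and the rest were kept equal between groups. Of the 2-fold changes 93% and of the 4-fold changes 98% were recovered, with 4.02% false calls. With so few genes changed, the simulation does not show how scaling fares where many genes differ, as in these data. Counts of 3 correspond to 0.0561 to 0.245 CPM. P-values measure the spread between these tendons only.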

Additional observations from a re-analysis of the deposited data

Results flagged for a closer look

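Values of 15 named genes were compared within the 5 repaired groups of 4 or 5 tendons by the gap of the extreme tendon (75 sets of values, 8 with a tendon far from the others). Chance alone gives about 1 in 20 such sets. The 7D 2 mg/kg replicate 4 tendon was far above its group for Mbp (49.0 CPM, the others at most 13.2) and Prx (22.4 CPM, the others at most 11.3). Mbp was also high in 21D 0 mg/kg replicate 2 (18.3 CPM, the others at most 6.36), a tendon that stood apart over all genes.

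The 7D 0 mg/kg replicate 1 tendon was high for Mal (38.2 CPM), Egr2 (48 CPM) and Scn7a (3.48 CPM). Egr2 was high in 21D 6 mg/kg replicate 5 (37.7 CPM) and Ntrk2 in 21D 6 mg/kg replicate 3 (81.6 CPM). No named gene had a dose effect that differed between time points by the test of that difference.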

How the results depend on the processing

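Of 1208 single-gene values under other settings, 61 changed sign, 47 of them from a value within 1 standard error of 0 without a call, which were not counted as turned. Scaling by library size alone gave 4 members called at 7D 0 mg/kg, 4 at 7D 6 mg/kg, 4 at 21D 0 mg/kg, 3 at 21D 2 mg/kg and 2 at 21D 6 mg/kg against control, and 0 for 21D against 7D at 2 mg/kg, with Prx at 0.25 (21D 2 mg/kg) and Ngfr at 0 (21D 6 mg/kg), and added Prx at 7D 2 mg/kg (0.74, adjusted p = 0.0129). It raised the median change of all genes to between 0.508 and 0.641 (log2) against control. Of all 12558 genes it called 8253 at 7D 0 mg/kg, 8115 at 7D 2 mg/kg and 8149 at 7D 6 mg/kg, in either direction. At 21D it called 7600, 7712 and 7085 with 0, 2 and 6 mg/kg, and 1509 for 21D against 7D at 2 mg/kg. The muscle share as a covariate gave 0 members at 7D 2 mg/kg and 0 for 21D against 7D at 2 and at 6 mg/kg. Over all genes it called 1361 instead of 6977 at 7D 2 mg/kg. For 21D against 7D it called 1758 instead of 1641 at 2 mg/kg and 269 instead of 1643 at 6 mg/kg. It turned Mbp to -0.50, -0.66 and -1.73 at 7D with 0, 2 and 6 mg/kg and to -0.33 and -0.04 at 21D with 0 and 2 mg/kg. Mbp also turned to 0.62 and 1.01 for 21D against 7D at 2 and 6 mg/kg and to -0.16 for 2 against 0 mg/kg at 7D. A fit of only the groups compared gave 1 at 7D 0 mg/kg, 0 at 21D 6 mg/kg, 0 for 21D against 7D at 2 mg/kg and 1 (Pmp22) across doses at 7D; at 21D 2 mg/kg it lost Pmp22 and gained Mbp (adjusted p = 0.0328). Over all genes these fits called 6704 of 12247 at 7D 0 mg/kg, 6236 of 12030 at 21D 2 mg/kg and 5246 of 11944 at 21D 6 mg/kg. For 21D against 7D at 2 mg/kg they called 1845 of 12020, and across doses at 7D 287 of 12132. In 4 of the fits of only the groups compared Ngfr fell below the filter and gave no value.

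DESeq2 gave 1 at 7D 6 mg/kg, 2 for 21D against 7D at 2 mg/kg and 1 across doses at 21D. Of all 12558 genes it called 7098, 2289 and 138 there. RLE scaling and no filter each gave 0 for 21D against 7D at 2 mg/kg, beside 1657 of 12558 and 1747 of 13124 genes. No fold threshold gave 1 at 21D 0 mg/kg, beside 8274 of 12558 genes. Without single tendons the members called ran from 0 to 1 at 7D 0 and 6 mg/kg, 0 to 2 in each 21D group against control, and 0 to 1 for 21D against 7D at 2 and at 6 mg/kg. Over all genes these fits called 6406 to 7280 at 7D 0 mg/kg and 6341 to 7201 at 7D 6 mg/kg. At 21D they called 5476 to 6608, 5938 to 7048 and 5200 to 6338 with 0, 2 and 6 mg/kg. For 21D against 7D they called 953 to 1545 at 2 mg/kg and 795 to 1973 at 6 mg/kg. Signs turned without 1 tendon for Pmp22 at 7D 6 mg/kg (-0.06 to 0.69) and for Ngfr at 21D 0 (-0.10 to 1.19), 2 (-1.26 to 0.05) and 6 mg/kg (-0.98 to 0.29). The replicate block changed no count of members (3 at 7D 2 mg/kg, where it called 6949 of 12558 genes). The causes of these changes were not tested. Low counts limit Ngfr (13 to 251). Leaving control replicate 4 out of correlations was chosen after seeing the data.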
